A study of Rattus norvegicus with 15 samples.

Results

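Iron uptake, storage and export were followed through 10 genes in rat lung, chosen by name for their role in moving or storing iron, out of 22250 gene rows measured. They are transferrin (Tf), the transferrin receptor (Tfrc), the metal transporters Slc11a2 and Slc11a1, the metalloreductase Steap4, hepcidin (Hamp), iron regulatory protein 2 (Ireb2), the ferritin heavy and light chains (Fth1 and Ftl1), and the iron exporter ferroportin (Slc40a1). Of the 10 genes, 8 passed the filter on low values and were tested, and 2, Fth1 and Slc40a1, were listed at 0 in every library.

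RNA from lung of wild-type rats was sequenced in 15 libraries, 5 in each of 3 groups. WDD lungs came from rats given lipopolysaccharide (LPS) and smoke through the trachea and Wendan Decoction (WDD, a herbal decoction) into the stomach. COPD lungs came from rats given tracheal LPS and smoke without the decoction, as a model of chronic obstructive pulmonary disease, and control lungs came from normal rats. The sources used here give no strain, age, dose or length of treatment. The labels do not say whether each library is a separate animal, and the p-values then reflect only how far these samples spread.

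As background, iron in plasma travels bound to transferrin, enters cells through the transferrin receptor, is reduced from ferric to ferrous iron by a metalloreductase and leaves the endosome through a divalent metal transporter. Inside the cell it is stored in ferritin shells. Ferroportin exports it, and hepcidin, a peptide hormone made mainly in the liver, causes ferroportin to be degraded. Iron regulatory proteins bind hairpins called iron-responsive elements in the mRNAs of ferritin, ferroportin and the transferrin receptor. In lung, macrophages take up iron from the airspaces, and withholding iron from bacteria is part of host defence.

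Levels are in FPKM, fragments counted per kilobase of transcript and scaled to the size of the library. Every change is a difference of log2(FPKM + 1) with its standard error, from limma, with Benjamini-Hochberg adjusted p over 13172 tested genes, and the threshold for a call was an adjusted p of 0.05. This scale understates the change of genes with low FPKM. The libraries also differed as wholes: the share of all FPKM that fell to genes of the mitochondrial genome was 21.7% ± 2.90 in WDD lungs, 44.9% ± 12.4 in COPD lungs and 8.11% ± 1.94 in control lungs (SD, n = 5 each). Long housekeeping transcripts stood below short ones by a mean difference of -3.76 log2 units in WDD lungs, -4.06 in COPD lungs and -1.77 in control lungs. The median tested gene differed by -0.81 for COPD against control lungs, 0.54 for WDD against COPD lungs and -0.23 for WDD against control lungs. Rescaling the libraries by median-of-ratios size factors brought these medians to -0.05, 0.03 and 0.00, so each change below is read against its median. Sequencing depth, read from the FPKM steps of low genes, ranged over 0.879 (COPD 4) to 1.11 (COPD 2), with control 2 set as the unit. In bulk lung, fewer cells of a type and less RNA per cell cannot be told apart. Of the lung tissue markers 5 of 6 tested were called lower in COPD against control lungs (3 after median-of-ratios scaling) and 6 of 6 higher in WDD against COPD lungs (5 after it). Of the alveolar type 2 markers 6 of 8 were lower and then 6 of 8 higher (5 lower and 2 higher, then 6 higher and 2 lower, after it). Of all tested genes, 66.4% were lower in the first comparison and 57.1% higher in the second. After median-of-ratios scaling 32.6% were lower and 30.0% higher in the first, and 23.3% were higher and 21.4% lower in the second. Sftpc averaged 14412 FPKM in WDD, 5543 in COPD and 12607 in control lungs. The part of these cells in the changes of the iron genes was not tested. The endothelial marker Cldn5 was listed at 0 in every library.

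The promoters of Steap4, Tf and Hamp are shown because these genes had the highest changes in COPD against control lungs among the tested genes with a promoter in the table. The place of Hamp rests on COPD 5: its change was 1.49 with that library and 0.73 without it. Each is the 250 bases before the annotated gene start, 5′ to 3′ on the gene's strand, from RefSeq's GRCr8 table matched by symbol. The expression values were made on the older build Rnor_6.0. Capitals mark motif matches.
Steap4, chr4:27054770-27055019, minus strand: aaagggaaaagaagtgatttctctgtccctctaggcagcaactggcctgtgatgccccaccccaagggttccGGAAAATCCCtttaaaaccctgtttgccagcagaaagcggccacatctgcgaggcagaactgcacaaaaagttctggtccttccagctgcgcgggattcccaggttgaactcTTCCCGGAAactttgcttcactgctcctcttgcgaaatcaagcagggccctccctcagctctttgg
Hamp, chr1:95300272-95300521, minus strand: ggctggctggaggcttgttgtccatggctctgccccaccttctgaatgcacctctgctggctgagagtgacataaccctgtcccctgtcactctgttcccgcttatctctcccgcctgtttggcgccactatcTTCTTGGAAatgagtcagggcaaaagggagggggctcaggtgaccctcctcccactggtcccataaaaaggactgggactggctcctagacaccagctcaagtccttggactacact
Tf, chr8:112695377-112695626, minus strand: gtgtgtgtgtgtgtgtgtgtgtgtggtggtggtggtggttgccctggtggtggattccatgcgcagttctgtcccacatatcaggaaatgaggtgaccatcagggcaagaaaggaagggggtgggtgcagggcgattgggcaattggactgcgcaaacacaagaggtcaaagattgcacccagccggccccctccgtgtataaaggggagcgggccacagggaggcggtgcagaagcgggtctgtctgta

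Windows of 300 bases, from 250 before to 50 after the start, were searched for 4 motifs, and 7 of the 10 genes had such a window (none for Fth1, Ftl1 and Slc11a1). The Steap4 promoter held 1 match to the NF-kappaB motif on the opposite strand, between positions -178 and -169 from the start, and 1 match to the STAT motif TTCNNNGAA between -66 and -58. The Hamp promoter held TTCNNNGAA between -117 and -109, and the Tf promoter held no match. On both strands, the NF-kappaB motif was found in 7.51% and TTCNNNGAA in 8.87% of all 33469 RefSeq windows. The STAT motif was added after the expression values were seen. The antioxidant response element TGACNNNGC, searched on both strands, was in none of the windows of the 7 genes and in 12.1% of all windows. The iron-responsive element, searched on the gene's strand as a CAGTGN loop with a paired stem, was in none of those windows and in 0.0568% of all windows, but a window holds only the first 50 transcribed bases and ferritin had none, so this says nothing about such elements in the mRNAs. TTCNNNGAA reads the same on both strands, its matches did not overlap the NF-kappaB match, and a match describes letters only.

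In COPD against control lungs, 4 of the 8 tested genes were called higher (Tf, Steap4, Slc11a1 and Hamp), 2 were called lower (Tfrc and Ireb2) and 2 did not pass (Slc11a2 and Ftl1). Hamp passed the filter through its COPD libraries: it reached 1 FPKM in 6 libraries, COPD 2 to 5, WDD 3 and control 1. Its call as higher in COPD lungs is therefore not independent of the filter. Of all tested genes, 8.23% were called higher and 66.4% lower in that comparison, 74.7% in all. The median change of the 8 genes was 0.79, beside -0.81 for all tested genes. After median-of-ratios scaling 6 of the 8 were called higher and 0 lower, beside 30.0% and 32.6% of all tested genes; Tfrc (-0.14, limma adjusted p = 0.405) and Ireb2 (0.30, limma adjusted p = 0.109) were the 2 that were not called.

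In WDD against COPD lungs, 0 of the 8 genes were called higher and 4 were called lower: Tf, Steap4, Slc11a1 and Slc11a2. Of all tested genes, 57.1% were called higher and 6.63% lower, 63.8% in all. With the libraries rescaled by median of ratios, 0 of the 8 were higher and 6 lower, beside 23.3% and 21.4% of all tested genes. The median change of the 8 genes was -1.11, beside 0.54 for all tested genes. In WDD against control lungs, 0 were called higher and 3 were called lower (Tfrc, Ireb2 and Slc11a2), where 6.35% of all tested genes were higher and 31.0% lower, 37.3% in all. After median-of-ratios scaling Ireb2 was the 1 gene called, lower, beside 15.7% of all tested genes higher and 17.2% lower. The comparisons share libraries (COPD in the first 2, control in the first and the third), so their values for a gene are not independent.

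**Figure D1:**
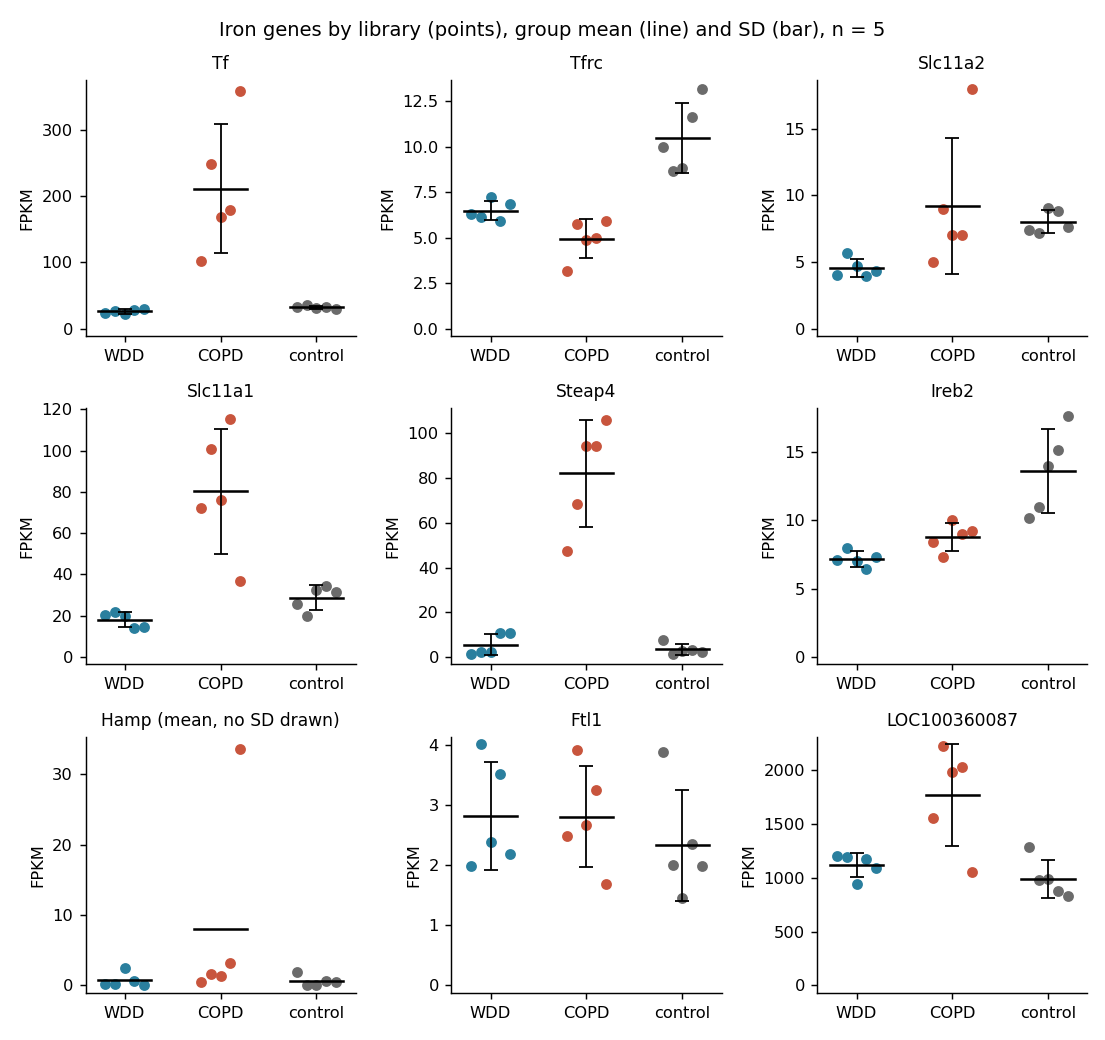
FPKM (linear axes) of the 8 tested iron genes and of the added ferritin light chain row LOC100360087 in every library, with WDD, COPD and control lungs from left to right; points are libraries, lines are group means and bars are SD (n = 5; no SD for Hamp). All 5 COPD libraries of Tf, Steap4 and Slc11a1 sit above every WDD and control library, and COPD 5 alone lifts Hamp, at 33.6 FPKM.

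Tf encodes transferrin, the plasma iron carrier. It stood at 23.0, 26.5, 22.0, 28.3 and 29.1 FPKM in WDD lungs, 101, 248, 168, 179 and 359 FPKM in COPD lungs, and 32.3, 35.3, 30.3, 32.6 and 28.8 FPKM in control lungs. Every COPD library lay above every WDD and control library, and COPD 5 was the highest. Tf rose in COPD against control lungs by 2.57 ± 0.24 (limma adjusted p = 9.86e-08), a 6.63-fold ratio of mean FPKM, and fell by 2.87 ± 0.24 in WDD against COPD lungs (limma adjusted p = 1.85e-07). WDD and control lungs overlapped, with a difference of -0.30 ± 0.24 (limma adjusted p = 0.348). Because transferrin is a major liver product, hepatocyte markers were read beside it: 7 of 8 were in the file, 2 passed the filter and 0 were at 0 in every library. Their summed level was 8.16 to 17.8 FPKM in WDD, 2.14 to 5.09 in COPD and 7.68 to 19.1 in control lungs. By group mean, most of it was Serpina1 in WDD and control lungs but Apoa2 in COPD lungs. Serpina1 averaged 11.5 FPKM in WDD, 0.884 in COPD and 12.0 in control lungs. It was called lower in COPD against control lungs (-2.79, limma adjusted p = 8.13e-07) and higher in WDD against COPD lungs (2.75, limma adjusted p = 3.55e-06). Apoa2, the other one tested, went the other way, with 0.447 FPKM in WDD, 2.24 in COPD and 0.542 in control lungs, and was called higher in COPD against control lungs (1.03, limma adjusted p = 0.00129) and lower in WDD against COPD lungs (-1.08, limma adjusted p = 0.00140). Fga averaged 0 FPKM in WDD, 0.219 in COPD and 0 in control lungs, Fgb averaged 0.00519, 0.0746 and 0.0111 FPKM in those groups in that order, and Alb, a defining marker, averaged 0.0590, 0.0325 and 0.00757 FPKM. Apoa1 averaged 1.06 FPKM in WDD, 0.317 in COPD and 0.685 in control lungs, and Ttr averaged 0.0454, 0.0426 and 0.0447 FPKM. The part of liver transcripts in the Tf values was not tested.

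Tfrc encodes the transferrin receptor, through which transferrin-bound iron enters cells. It stood at 6.31, 6.11, 7.22, 5.93 and 6.82 FPKM in WDD lungs, 3.19, 5.74, 4.86, 4.996 and 5.92 FPKM in COPD lungs, and 9.98, 8.67, 8.82, 11.6 and 13.2 FPKM in control lungs. The 3 groups did not overlap, WDD and COPD lungs by the narrowest margin (5.93 against 5.92 FPKM), control lungs being highest and COPD lungs lowest. Such non-overlap was common: 52.3% of tested genes lay lower in every COPD than in every control library, and 40.6% lay higher in every WDD than in every COPD library. Tfrc fell by 0.95 ± 0.16 in COPD against control lungs (limma adjusted p = 3.79e-05), close to the median gene's -0.81, and it differed by -0.14 after median-of-ratios scaling and by 0.0020, the opposite sign, after quantile normalisation. In WDD against COPD lungs it differed by 0.35 ± 0.16 (limma adjusted p = 0.0588), and by -0.20 after median-of-ratios scaling, a change of sign. The first value passed without COPD 2 (0.40, limma adjusted p = 0.0421) or without COPD 5 (0.41, limma adjusted p = 0.0270). In WDD against control lungs Tfrc fell by 0.60 ± 0.16 (limma adjusted p = 0.00624), and by 0.35 with an adjusted p of 0.0801 from limma after median-of-ratios scaling.

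Slc11a2 encodes DMT1, which carries ferrous iron out of the endosome and across the apical membrane of the gut. It stood at 4.01, 5.66, 4.67, 3.95 and 4.35 FPKM in WDD lungs, 5.02, 8.95, 7.01, 6.98 and 18.0 FPKM in COPD lungs, and 7.43, 7.14, 9.02, 8.84 and 7.62 FPKM in control lungs. COPD 5 stood apart from the other 4 COPD libraries, which overlapped the control lungs, and all WDD libraries lay below all control libraries. COPD and control lungs differed by 0.06 ± 0.23 (limma adjusted p = 0.812), by -0.19 without COPD 5, and by 0.89 after median-of-ratios scaling (limma adjusted p = 0.00540). Slc11a2 fell by 0.77 ± 0.23 in WDD against COPD lungs (limma adjusted p = 0.00788) and in WDD against control lungs by 0.71 ± 0.23 (limma adjusted p = 0.0223). The last call ended after median-of-ratios scaling (-0.46, limma adjusted p = 0.172) and without WDD 4 (limma adjusted p = 0.0524), control 3 (0.0532) or control 4 (0.0516). Of all tested genes, 31.4% lay lower and 6.76% higher in every WDD than in every control library.

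Slc11a1 encodes NRAMP1, a transporter that removes metal ions from the phagosomes of macrophages and neutrophils. It stood at 20.2, 22.0, 19.7, 13.98 and 14.4 FPKM in WDD lungs, 72.1, 101, 76.1, 115 and 36.8 FPKM in COPD lungs, and 25.7, 19.8, 32.6, 34.2 and 31.5 FPKM in control lungs. COPD 5, the lowest COPD library here and the highest for Tf, Slc11a2 and Hamp, lay just above the highest control library. Slc11a1 rose in COPD against control lungs by 1.38 ± 0.25 (limma adjusted p = 0.000120), and fell by 2.02 ± 0.25 in WDD against COPD lungs (limma adjusted p = 7.63e-06). WDD and control lungs differed by -0.64 ± 0.25 (limma adjusted p = 0.0563), a difference that passed without control 2 (-0.76, limma adjusted p = 0.0344).

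Steap4 encodes a metalloreductase that reduces ferric iron and is known to be induced by inflammatory cytokines. It stood at 1.31, 2.23, 2.41, 10.6 and 10.8 FPKM in WDD lungs, 47.4, 68.2, 94.4, 94.5 and 106 FPKM in COPD lungs, and 7.59, 1.42, 2.50, 3.32 and 2.17 FPKM in control lungs. The lowest COPD library lay well above every other library, and WDD 4 and WDD 5 lay above every control library. Steap4 rose in COPD against control lungs by 4.33 ± 0.44 (limma adjusted p = 2.85e-07), a 24.2-fold ratio of mean FPKM, and fell by 3.97 ± 0.44 in WDD against COPD lungs (limma adjusted p = 2.76e-06). WDD and control lungs differed by 0.36 ± 0.44 (limma adjusted p = 0.560). Tf, Slc11a1 and Steap4 were the 3 genes of the 10 whose COPD libraries all lay above all control and all WDD libraries; 3.99% of tested genes lay higher in every COPD than in every control library, and 4.43% lay lower in every WDD than in every COPD library.

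Summed neutrophil markers were highest in COPD lungs, as were Tf, Steap4 and Slc11a1, but the order of libraries within groups was not the same. The sum averaged higher in WDD than in control lungs, as Steap4 did, whereas Tf and Slc11a1 averaged lower in WDD than in control lungs. Of 13 markers, all in the file, 11 were tested, and 10 were called higher in COPD against control lungs and 10 lower in WDD against COPD lungs, before and after median-of-ratios scaling. Of all tested genes, 8.23% were higher and 6.63% lower in those comparisons in turn, and 30.0% and 21.4% after that scaling. Their summed level was 88.4, 95.5, 95.1, 376 and 445 FPKM in WDD 1 to 5, 14795, 43201, 29393, 26382 and 11815 FPKM in COPD 1 to 5, and 46.3 to 99.5 FPKM in control lungs. By group mean, most of this sum was S100a9, with S100a8 next. S100a9 averaged 140 FPKM in WDD, 15336 in COPD and 37.3 in control lungs, and S100a8 averaged 54.7, 8453 and 14.2 FPKM. The order of libraries by the sum was thus weighted to these genes. WDD 4 and WDD 5, the highest WDD libraries for this sum, were the highest for Steap4 and the lowest for Slc11a1. COPD 5, the lowest COPD library for the sum, was the lowest for Slc11a1 and the highest for Steap4 and Tf. Macrophage markers, 15 of 16 in the file, had a summed level of 344 to 418 FPKM in WDD, 132 to 319 FPKM in COPD and 333 to 470 FPKM in control lungs. Of 14 tested, 1 was called higher and 9 lower in COPD against control lungs, beside 66.4% of all tested genes lower. After median-of-ratios scaling 4 were higher (Msr1, Fabp4, Itgax and Cd68) and 6 lower (Mertk, Pparg, Mrc1, Siglec1, C1qa and Csf1r). Of all tested genes, 30.0% were then higher and 32.6% lower. In WDD against COPD lungs 7 macrophage markers were called higher and 2 lower, beside 57.1% and 6.63% of all tested genes. After median-of-ratios scaling 5 were higher and 3 lower there, beside 23.3% and 21.4%. Of the 13 neutrophil and 15 macrophage markers in the file, 0 were at 0 in every library. The part of either cell type in the changes of the iron genes was not tested.

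**Figure D2:**
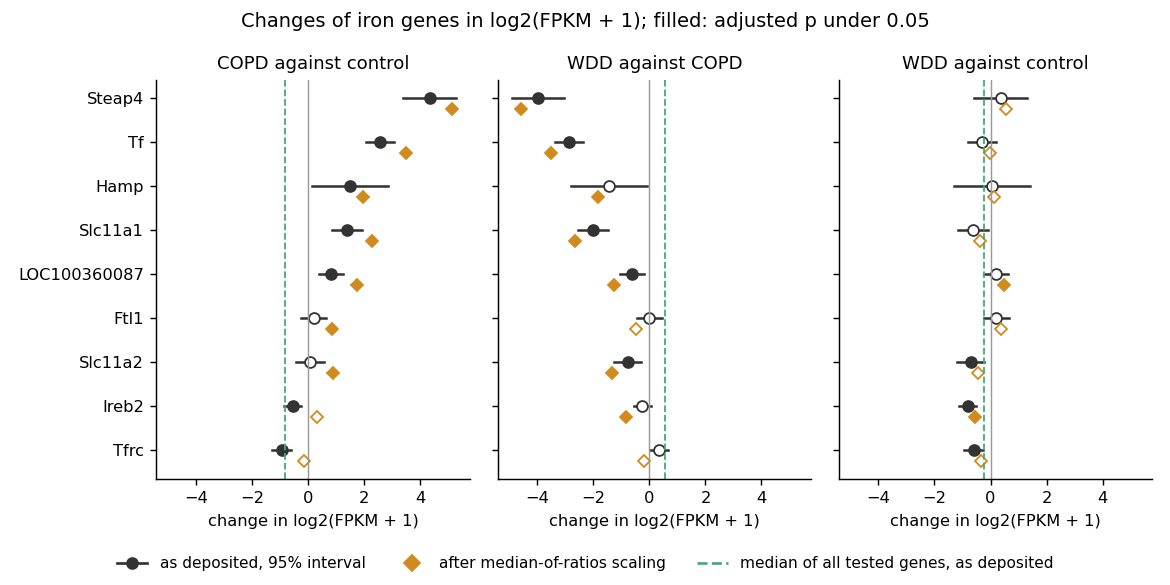
Change in log2(FPKM + 1) of the 8 tested iron genes and of LOC100360087 in the 3 comparisons; circles are limma estimates as deposited with 95% confidence intervals, diamonds are estimates after median-of-ratios scaling, filled symbols have an adjusted p under 0.05, and the dashed line is the median of all tested genes. Steap4 and Tf have the highest estimates in COPD against control lungs, at 4.33 and 2.57, and the lowest in WDD against COPD lungs, at -3.97 and -2.87.

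The ratio of Slc11a1 to Slc11a2, the phagosomal over the endosomal transporter, was computed within each library, where rescaling a library has no effect. It was 5.02, 3.88, 4.21, 3.54 and 3.32 in WDD lungs, 14.4, 11.2, 10.9, 16.5 and 2.05 in COPD lungs, and 3.46, 2.78, 3.62, 3.87 and 4.13 in control lungs. In 4 COPD libraries the ratio lay above every other library, and in COPD 5 it was the lowest of all 15. The mean log2 ratio differed by 1.35 for COPD against control lungs (two-sided exact permutation p = 0.0476, adjusted over the 3 tests 0.0714) and by -1.19 for WDD against COPD lungs (exact permutation p = 0.0476, adjusted 0.0714). It differed by 0.16 for WDD against control lungs (exact permutation p = 0.317, adjusted 0.317), and the smallest p that 5 against 5 allows is 0.00794. Without COPD 5 the first difference was 1.88 and the second -1.72, each with an adjusted exact permutation p of 0.0119.

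Hamp encodes hepcidin, the hormone that lowers ferroportin, and 1 COPD library carried most of its signal. It stood at 0.209, 0.206, 2.48, 0.619 and 0 FPKM in WDD lungs, 0.448, 1.58, 1.30, 3.23 and 33.6 FPKM in COPD lungs, and 1.96, 0, 0, 0.657 and 0.455 FPKM in control lungs. These values are whole multiples of the smallest step, within 0.1, in 15 of 15 libraries: 1, 1, 12, 3 and 0 steps in WDD, 2, 8, 6, 13 and 167 in COPD, and 9, 0, 0, 3 and 2 in control lungs. All libraries but COPD 5 held at most 13 steps. Hamp was called higher in COPD against control lungs by 1.49 ± 0.64 (limma adjusted p = 0.0449), but by 0.73 without COPD 5 (limma adjusted p = 0.0947), and the call ended in 6 of the 10 fits that left out 1 library (COPD 4, COPD 5 and control 2, 3, 4 and 5). WDD and COPD lungs differed by -1.45 ± 0.64 (limma adjusted p = 0.0577). That difference passed after median-of-ratios scaling (-1.83, limma adjusted p = 0.0432), quantile normalisation (-1.95, 0.0164) or scaling without the mitochondrial sum (-1.59, 0.0482), with a pseudocount of 0.1 (-2.60, 0.0475), and without WDD 3 (-1.75, 0.0329), COPD 1 (-1.83, 0.0244) or COPD 3 (-1.67, 0.0442), and was -0.69 without COPD 5 (0.124). WDD and control lungs differed by 0.04 ± 0.64 (limma adjusted p = 0.968).

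Ireb2 encodes iron regulatory protein 2, which binds iron-responsive elements when iron is scarce. It stood at 7.08, 7.96, 6.98, 6.43 and 7.31 FPKM in WDD lungs, 8.40, 7.28, 9.98, 8.98 and 9.18 FPKM in COPD lungs, and 10.2, 10.9, 13.9, 15.1 and 17.6 FPKM in control lungs. Every control library lay above every WDD and COPD library, and WDD and COPD lungs overlapped. In COPD against control lungs Ireb2 fell by 0.56 ± 0.15 (limma adjusted p = 0.00260), less than the median gene, and after median-of-ratios scaling the sign turned to 0.30 (limma adjusted p = 0.109). WDD and COPD lungs differed by -0.26 ± 0.15 (limma adjusted p = 0.136), and by -0.85 after median-of-ratios scaling (limma adjusted p = 0.000439). In WDD against control lungs Ireb2 fell by 0.81 ± 0.15 (limma adjusted p = 0.000491) and by 0.55 after median-of-ratios scaling (limma adjusted p = 0.0128).

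Ferritin could be read through its light chain alone, since Fth1, the heavy chain with the ferroxidase site, was listed at 0 in all 15 libraries. The row named Ftl1 averaged 2.81 ± 0.891 FPKM in WDD, 2.80 ± 0.841 in COPD and 2.33 ± 0.924 in control lungs (SD, n = 5 each), and it passed in none of the 3 comparisons as deposited (limma adjusted p = 0.395 for COPD against control, 0.989 for WDD against COPD and 0.478 for WDD against control). Its row is uncertain, because near-identical copies can share reads. After median-of-ratios scaling it was called higher in COPD against control lungs (0.86, limma adjusted p = 0.00114). LOC100360087, for which RefSeq lists Ftl1 as a synonym, and LOC100359668, which RefSeq names Ftl1l2, were added after the values were seen. LOC100360087 averaged 1122 ± 109 FPKM in WDD, 1771 ± 471 in COPD and 991 ± 176 in control lungs (SD, n = 5 each), so the row named Ftl1 held 0.249%, 0.157% and 0.231% of the FPKM of the 3 rows in those groups.

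LOC100360087 was the more abundant row by far, above 99.7% of tested genes by mean FPKM. It lay between 943 and 1201 FPKM in WDD lungs, at 1553, 2228, 1987, 2033 and 1054 FPKM in COPD lungs and at 1283, 976, 988, 881 and 827 FPKM in control lungs. In 4 of the 5 COPD libraries it exceeded every other library, and COPD 5 fell among the WDD and control values. It rose in COPD against control lungs by 0.81 ± 0.20 (limma adjusted p = 0.00173), with 1.73 after median-of-ratios scaling (limma adjusted p = 3.41e-07) and 0.23 after quantile scaling (limma adjusted p = 0.268). It fell by 0.62 ± 0.20 in WDD against COPD lungs (limma adjusted p = 0.0140). WDD and control lungs differed by 0.19 ± 0.20 (limma adjusted p = 0.492), by 0.47 after median-of-ratios scaling (limma adjusted p = 0.0386) and, with the opposite sign, by -0.65 after quantile scaling (limma adjusted p = 0.00860). LOC100359668 averaged 1.99 FPKM in WDD, 2.87 in COPD and 1.79 in control lungs, and was called higher in COPD against control lungs by 0.46 (limma adjusted p = 0.0498), a call that ended in 7 of the 10 fits without 1 library (COPD 1, 2 and 4 and control 2, 3, 4 and 5).

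Slc40a1, the cellular iron exporter, was also listed at 0 in all 15 libraries. An exact 0 can be a failed estimate in these files: 3950 rows, 17.8% of all rows, were at 0 in every library, among them Cldn5 and 2 of 92 ribosomal protein rows, Rpl10a and Rpl23a. No level, ratio or change is given for Fth1 and Slc40a1.

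**Figure D3:**
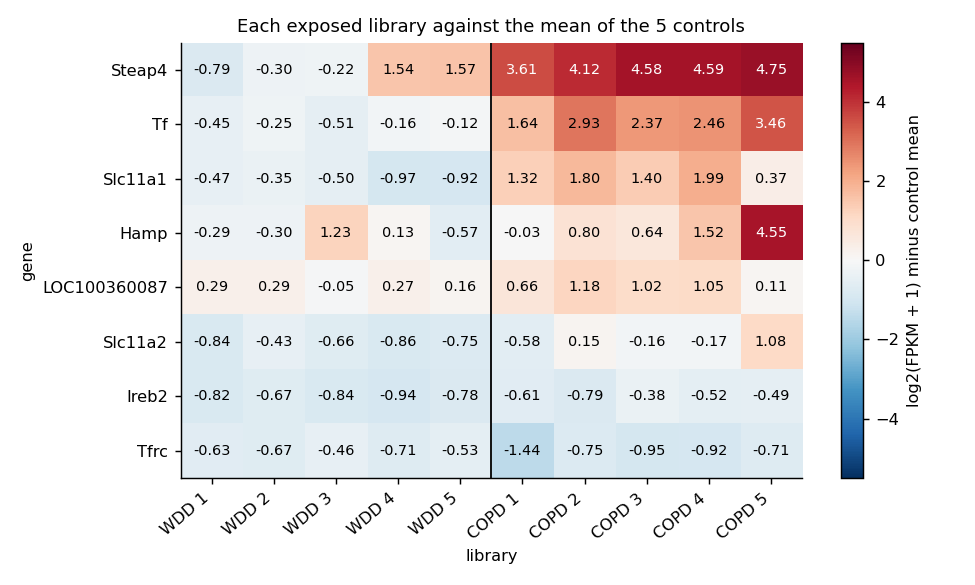
Difference in log2(FPKM + 1) of each WDD and COPD library from the mean of the 5 control libraries (colour and printed value), for 7 iron genes and LOC100360087. COPD 5 is highest for Tf (3.46), Hamp (4.55), Steap4 (4.75) and Slc11a2 (1.08) and lowest of the COPD libraries for Slc11a1 (0.37) and LOC100360087 (0.11).

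For Tf, Steap4, Slc11a1, Slc11a2 and LOC100360087 the SD of FPKM was larger among COPD than among WDD or control libraries, and for Tfrc and Ireb2 it was largest among control libraries. COPD 5 stood 3.46 above the control mean for Tf, 4.75 for Steap4, 4.55 for Hamp and 1.08 for Slc11a2 on the log2(FPKM + 1) scale, the highest of the 5 COPD libraries for each. It stood 0.37 above the control mean for Slc11a1 and 0.11 for LOC100360087, the lowest of the 5 for each. Its summed erythroid markers were also the highest of the COPD libraries at 12127 FPKM, against 911 to 2818 FPKM in the other 4, and its neutrophil sum was the lowest. The erythroid sum was 4939 to 14010 FPKM in WDD libraries, of which WDD 1 alone lay above COPD 5, and 371 to 6726 FPKM in control libraries. WDD 1, the highest of all, had Hamp at 0.209 FPKM. The part of red cells or neutrophils in the pattern of COPD 5 was not tested. COPD 1 had the highest mitochondrial share, 65.0%, and the lowest Tf, Tfrc, Steap4 and Slc11a2 of the COPD libraries. With COPD 1 and COPD 5 both left out, a choice made after the data were seen, the calls for Tf, Steap4 and Slc11a1 held in COPD against control and in WDD against COPD lungs.

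By level over all 15 libraries, Tf averaged 89.7 FPKM, Slc11a1 42.3 and Steap4 30.3, the 3 highest of the tested genes among the 10, followed by Ireb2 at 9.82, Tfrc at 7.29, Slc11a2 at 7.24, Hamp at 3.12 and Ftl1 at 2.65 FPKM. In control lungs alone the order of mean FPKM was Tf (31.9 ± 2.49), Slc11a1 (28.8 ± 5.94), Ireb2 (13.6 ± 3.06), Tfrc (10.5 ± 1.93), Slc11a2 (8.01 ± 0.860), Steap4 (3.40 ± 2.44) and Ftl1 (2.33 ± 0.924), each as mean and SD with n = 5, and Hamp lay below them. Neighbours in this order overlapped in their libraries except Slc11a1 and Ireb2, and Slc11a2 and Steap4 overlapped through control 1 alone. In COPD lungs Steap4 averaged 82.1 ± 23.8 FPKM, beside Slc11a1 at 80.2 ± 30.1 FPKM and below Tf at 211 ± 97.8 FPKM (SD, n = 5 each).

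The profiles most like Slc11a1, by the root mean square difference of centred log2(FPKM + 1) over 15 libraries, were Itgam (0.22), which encodes an integrin of neutrophils and macrophages, Fmnl1 (0.25), a formin of blood cells, and Fgd3 (0.26). Itgam averaged 3.39 FPKM in WDD, 19.9 in COPD and 6.17 in control lungs. The profiles most like Tfrc were Trip12 (0.14), a ubiquitin ligase, Tollip (0.15), an adaptor of Toll-like receptor signalling, and Usp9x (0.15), a deubiquitinase that is also among the long housekeeping transcripts used above. Usp9x averaged 12.2 FPKM in WDD, 9.09 in COPD and 19.2 in control lungs.

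Around the 10 genes, 74 other genes of iron and haem handling were read from lists, of which 61 were tested. In COPD against control lungs 9 were called higher and 31 lower, with a median of -0.58, and in WDD against COPD lungs 33 were called higher and 7 lower, with a median of 0.55. All tested genes had medians of -0.81 and 0.54 there, with 8.23% higher and 66.4% lower, then 57.1% higher and 6.63% lower. In WDD against control lungs 5 of the 61 were called higher and 17 lower, beside 6.35% and 31.0% of all tested genes. Under median-of-ratios scaling the counts in COPD against control lungs were 22 higher and 20 lower, beside 30.0% and 32.6% of all tested genes. In WDD against COPD lungs they were 12 higher and 16 lower, beside 23.3% and 21.4%. In WDD against control lungs they were 11 higher and 12 lower, beside 15.7% and 17.2%. The balance of higher and lower calls in COPD against control lungs depended on the scale, for these genes as for all tested genes.

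Of the genes for extracellular iron and haem binding, 3 were tested in COPD against control lungs. Hp, haptoglobin, which binds free haemoglobin, averaged 23.2 FPKM in WDD, 423 in COPD and 20.6 in control lungs, and rose in COPD against control lungs by 4.09 ± 0.37 (limma adjusted p = 8.50e-08). Lcn2, lipocalin 2, which captures bacterial siderophores and is abundant in neutrophils, averaged 152 FPKM in WDD, 3046 in COPD and 128 in control lungs, and rose by 3.76 ± 0.89 (limma adjusted p = 0.00112). Its spread was wide: 324, 7027, 4273, 438 and 3169 FPKM in COPD 1 to 5, and 9.18 to 237 FPKM in WDD lungs. Hp fell by 3.96 ± 0.37 (limma adjusted p = 5.65e-07) and Lcn2 fell by 4.08 ± 0.89 (limma adjusted p = 0.000893) in WDD against COPD lungs. Hpx, hemopexin, which binds haem, differed by -0.29 in COPD against control lungs (limma adjusted p = 0.222), and by 0.43 after median-of-ratios scaling, a change of sign. In WDD against COPD lungs it differed by 0.51 (limma adjusted p = 0.0441), and by -0.01 after that scaling.

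Among sensing and ferritin turnover genes, Fbxl5, the iron-sensing ubiquitin ligase subunit that targets iron regulatory proteins such as Ireb2 for degradation, averaged 39.7 ± 1.93 FPKM in WDD, 241 ± 77.1 in COPD and 40.01 ± 4.14 in control lungs (SD, n = 5 each). It rose in COPD against control lungs by 2.51 ± 0.18 (limma adjusted p = 7.32e-09) and fell by 2.52 ± 0.18 in WDD against COPD lungs (limma adjusted p = 3.42e-08). Ncoa4, the receptor that delivers ferritin for breakdown, and Aco1, iron regulatory protein 1, moved the opposite way. Ncoa4 fell by 1.59 ± 0.14 and Aco1 fell by 1.34 ± 0.18 in COPD against control lungs, and they rose in WDD against COPD lungs by 1.15 ± 0.14 and 1.01 ± 0.18, all 4 changes called by limma before and after median-of-ratios scaling.

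Of 7 tested import and reduction genes, 2 were higher, 2 lower and 3 not called in COPD against control lungs. Of all tested genes, 8.23% were higher and 66.4% lower there. Slc39a14, a zinc and iron importer known to rise in inflammation in mouse liver, averaged 2.11 FPKM in WDD, 15.03 in COPD and 3.13 in control lungs, and rose by 1.89 ± 0.20 (limma adjusted p = 3.13e-07). Cybrd1, a ferric reductase, averaged 7.20 FPKM in WDD, 1.94 in COPD and 26.7 in control lungs, and fell by 3.24 ± 0.20 (limma adjusted p = 3.53e-09). Of these iron reductases, Steap4 rose and Cybrd1 fell in COPD against control lungs, under the deposited scale and after median-of-ratios scaling. Mcoln1, a lysosomal cation channel, fell by 1.54 ± 0.22 (limma adjusted p = 1.09e-05). Slc39a14 fell by 2.30 ± 0.20 in WDD against COPD lungs, where Cybrd1 rose by 1.49 ± 0.20 and Mcoln1 rose by 1.35 ± 0.22 (limma adjusted p = 2.22e-07, 1.76e-05 and 9.30e-05). Heph, a ferroxidase that works with ferroportin, averaged 12.0 FPKM in WDD, 4.40 in COPD and 13.1 in control lungs, fell by 1.54 ± 0.27 in COPD against control lungs (limma adjusted p = 7.02e-05) and rose in WDD against COPD lungs by 1.41 ± 0.27 (limma adjusted p = 0.000305), whereas the plasma ferroxidase Cp fell by 0.71 ± 0.21 in WDD against COPD lungs (limma adjusted p = 0.00731). Cp differed by 0.33 ± 0.21 in COPD against control lungs (limma adjusted p = 0.163), and was called higher after median-of-ratios scaling (1.23, limma adjusted p = 0.000231).

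**Figure D4:**
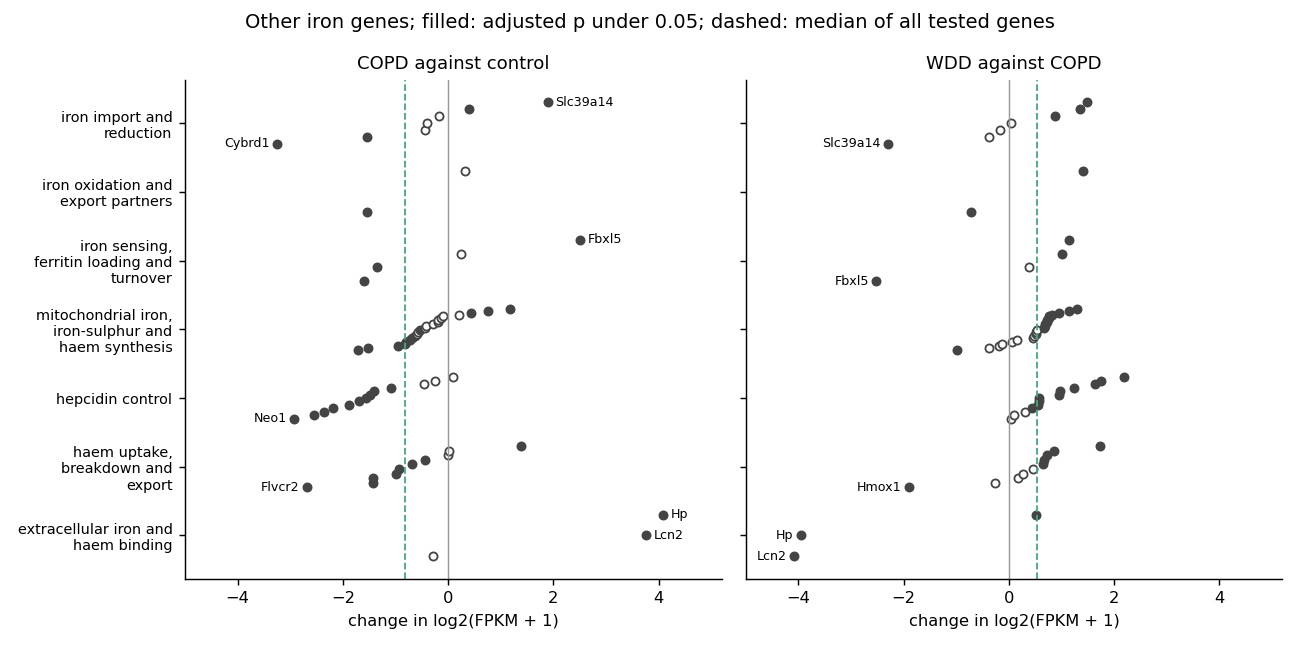
Change in log2(FPKM + 1) (horizontal axis) of the 61 tested other iron genes by list, in COPD against control lungs on the left and WDD against COPD lungs on the right; filled points have a limma adjusted p under 0.05 and the dashed line is the median of all tested genes. Hp, Lcn2, Fbxl5 and Slc39a14 lie far right in COPD against control lungs and far left in WDD against COPD lungs.

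In the list for hepcidin control 13 genes were tested, and in COPD against control lungs 0 were called higher, 10 lower and 3 were not called, with a median of -1.57 beside -0.81 for all tested genes, of which 66.4% were lower. In WDD against COPD lungs 10 were called higher and 0 lower, beside 57.1% of all tested genes higher, with a median of 0.57 beside 0.54, and in WDD against control lungs 0 were higher and 8 lower, beside 31.0% lower. Under median-of-ratios scaling 1 was higher and 9 lower in COPD against control lungs, and 4 higher and 1 lower in WDD against COPD lungs. Of all tested genes, 30.0% were then higher and 32.6% lower in the first, and 23.3% higher and 21.4% lower in the second. Neo1, neogenin, fell by 2.93 ± 0.18 in COPD against control lungs (limma adjusted p = 3.50e-09), and Bmp6, the iron-responsive ligand that drives hepcidin in liver, fell by 2.55 ± 0.21 (limma adjusted p = 3.35e-08). Smad5, which carries the BMP signal to the nucleus, fell by 1.48 ± 0.13 (limma adjusted p = 8.11e-08). Neo1 rose in WDD against COPD lungs by 1.64 ± 0.18, Bmp6 by 1.75 ± 0.21 and Hfe, the haemochromatosis protein, by 1.23 ± 0.20 (limma adjusted p = 2.82e-06, 5.54e-06 and 8.11e-05), all 3 also called after median-of-ratios scaling. Of 10 tested haem genes, 1 was higher and 7 lower in COPD against control lungs, beside 8.23% and 66.4% of all tested genes. Their median was -0.80, beside -0.81 for all tested genes. Under median-of-ratios scaling 4 rose and 3 fell, beside 30.0% and 32.6% of all tested genes. The gene higher as deposited, Hmox1, which breaks down haem and releases its iron, averaged 24.9 FPKM in WDD, 95.1 in COPD and 35.9 in control lungs. It rose by 1.38 ± 0.14 in COPD against control lungs (limma adjusted p = 2.25e-07) and fell by 1.90 ± 0.14 in WDD against COPD lungs (limma adjusted p = 5.32e-08). Flvcr1, a haem exporter, and its relative Flvcr2 fell by 1.44 ± 0.16 and by 2.69 ± 0.25 in COPD against control lungs (limma adjusted p = 5.51e-07 and 1.23e-07). Both rose in WDD against COPD lungs, Flvcr1 and Flvcr2 by 0.65 ± 0.16 and by 1.74 ± 0.25 (limma adjusted p = 0.00211 and 3.11e-05), and Flvcr1 was not called after median-of-ratios scaling (0.43, limma adjusted p = 0.0642).

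Of 22 tested genes for mitochondrial iron, iron-sulphur clusters and haem synthesis, 3 were higher, 9 lower and 10 not called in COPD against control lungs, and 11 were higher, 1 lower and 10 not called in WDD against COPD lungs. Their medians were -0.49 and 0.61, beside -0.81 and 0.54 for all tested genes, of which 66.4% were lower in the first comparison and 57.1% higher in the second. After median-of-ratios scaling 9 were higher and 3 lower in COPD against control lungs, and 2 higher and 5 lower in WDD against COPD lungs. Of all tested genes, 30.0% were then higher and 32.6% lower in the first, and 23.3% higher and 21.4% lower in the second. Uros, an enzyme of haem synthesis, fell by 0.96 ± 0.16 in COPD against control lungs (limma adjusted p = 4.94e-05). Alas1, the first enzyme of haem synthesis outside red cells, fell by 1.53 ± 0.25 in COPD against control lungs (limma adjusted p = 3.28e-05) and rose in WDD against COPD lungs by 1.30 ± 0.25 (limma adjusted p = 0.000302). Slc25a37, mitoferrin 1, which brings iron into mitochondria, was the 1 gene called lower in WDD against COPD lungs as deposited. Its change there was -0.98 ± 0.13 (limma adjusted p = 1.01e-05), and -1.11 ± 0.13 in WDD against control lungs (limma adjusted p = 2.67e-05). COPD and control lungs differed by -0.14 ± 0.13 (limma adjusted p = 0.336), and by 0.73 after median-of-ratios scaling (limma adjusted p = 0.000114). Urod, another enzyme of haem synthesis, and Fdx1, a mitochondrial ferredoxin, rose in WDD against COPD lungs by 1.14 ± 0.18 and 0.77 ± 0.14 (limma adjusted p = 7.34e-05 and 0.000265), and Fdx1 was not called after median-of-ratios scaling (0.15, limma adjusted p = 0.391).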

How the data were processed

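Lung RNA in 15 libraries (5 WDD, 5 COPD, 5 control) was measured as FPKM per gene, deposited by the authors in 1 table of 22250 rows. Per the labels' protocols, RNA was extracted with TRIzol and 1 ug went into NEBNext Ultra libraries. Per the submitters' processing notes, cutadapt, HISAT2 and StringTie were used with the build Rnor_6.0. Their versions, the annotation and the use of strand: not given in the sources used here. Gene names come from the file. Total read counts are unknown because the table holds FPKM only.

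FPKM were taken to log2(FPKM + 1), genes with at least 1 FPKM in at least 5 libraries were kept (13172), and all 15 libraries were fitted together with limma 3.58.1 (R 4.3.3, empirical Bayes with a mean trend, Benjamini-Hochberg over all tested genes, call at adjusted p under 0.05). The fit was tested on simulated data. The ratio of Slc11a1 to Slc11a2 was tested by a two-sided exact permutation test, adjusted over 3 tests, and 4 other planned ratios needed Fth1 or Slc40a1 and were not computed. Median-of-ratios size factors used tested genes above 0 in every library. A version over all genes above 0 was also computed, and the version kept was chosen after both were seen.

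Named beside the 10 genes are up to 3 other iron genes per list with the lowest p in COPD against control and in WDD against COPD lungs, and the 3 profiles most like Slc11a1 and Tfrc. That search could not be made for Fth1 and Slc40a1. A gene that this rule would name is not reported here. The 10 genes and the lists were chosen with earlier results of these data known. The numbers of the replicates were not used as pairs in the main fit. Of 15 same-numbered pairs, 1 had a correlation of deviations over 0.1 (range -0.20 to 0.14). Differently numbered pairs were not compared, so this cannot exclude pairing or a shared batch. Alternatives were other scalings, filters, pseudocounts and weights, a replicate block, 2-group fits and leaving out libraries. Figures were drawn with matplotlib 3.10.9 in Python 3.11.15.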

Additional observations from a re-analysis of the deposited data

Results flagged for a closer look

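Hamp, the hepcidin gene, had 1 library far from the other 4 in both exposed groups. In WDD 3 it stood at 2.48 FPKM, where the nearest other WDD library had 0.619 FPKM, and in COPD 5 it stood at 33.6 FPKM, where the nearest other COPD library had 3.23 FPKM. The gap took up 0.751 of the range in WDD lungs and 0.916 in COPD lungs, above Dixon's critical value of 0.71 for 5 libraries. In all, 24 sets of 5 libraries were examined, and chance alone marks about 1 set in 20. COPD 5 also had the highest erythroid marker sum of the COPD libraries (12127 FPKM) and the lowest neutrophil sum (11815 FPKM), while WDD 1, with a higher erythroid sum (14010 FPKM), had 0.209 FPKM of Hamp. The part of either in the Hamp values was not tested.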

How the results depend on the processing

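In COPD against control lungs 6 of the 8 tested iron genes were called (5 to 6 leaving out 1 library at a time). In WDD against COPD lungs 4 were called (4 to 5), and in WDD against control lungs 3 (2 to 4). Of all tested genes, 74.7%, 63.8% and 37.3% were called in those comparisons in turn, with all libraries. The WDD against control count was 1 after median-of-ratios scaling, beside 15.7% of all tested genes higher and 17.2% lower. That count was 5 after scaling to the FPKM sum without mitochondrial genes, with library weights, or in a fit of the 2 groups alone. The WDD against COPD count was 7 after quantile normalisation. Shares of all tested genes under alternatives other than median-of-ratios scaling were not computed. Tf, Steap4 and Slc11a1 kept their calls and directions in COPD against control and WDD against COPD lungs under every alternative run. The Slc11a1 to Slc11a2 difference ranged over 1.13 to 1.88 (COPD against control), -1.72 to -0.97 (WDD against COPD) and 0.07 to 0.22 (WDD against control) when 1 library was left out; 1.88 and -1.72, without COPD 5, passed.

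Signs turned in COPD against control lungs for Ireb2 (0.30 after median-of-ratios scaling, 0.28 after quantile normalisation), Tfrc (0.0020 after quantile normalisation) and Slc11a2 (-0.14 with weights, -0.062 without COPD 1 and COPD 5, -0.19 to 0.22 leaving out 1 library). In WDD against COPD lungs they turned for Tfrc (-0.20 median-of-ratios, -0.25 quantile) and Ftl1 (-0.48 median-of-ratios, -0.64 quantile, -0.26 without the mitochondrial sum, -0.084 with weights, -0.19 without COPD 1 and COPD 5, -0.12 to 0.10 leaving out 1 library). In WDD against control lungs they turned for LOC100360087 (-0.65 quantile), LOC100359668 (-0.0073 without the mitochondrial sum, -0.032 to 0.21 leaving out 1 library) and Hamp (-0.26 to 0.29 leaving out 1 library). The causes were not tested.

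With a replicate block 5, 4 and 3 genes were called in COPD against control, WDD against COPD and WDD against control lungs; Hamp was the call lost in the first. Requiring a mean of at least 5 FPKM left no value for Ftl1 and Hamp. FPKM without read totals, zeros that may be failed estimates and the unequal balance of long and short transcripts limit all levels given here.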
